A study of Mus musculus with 6 samples.

Results

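The genes described here are 8 that start, carry out or restrain apoptosis: the caspase genes Casp2, Casp6, Casp8 and Casp9, the adaptor gene Apaf1, and Xiap, Birc2 and Birc3 of the inhibitor of apoptosis (IAP) family. They were chosen by name, were all found among the 39179 genes of the counts table, and all passed the low-count filter, which kept 16839 genes. Their RNA was measured in primary osteosarcomas of 6 mice, 1 tumor per mouse. The CD44+/+ tumors came from mice No244, No316 and No368, and the CD44-/- tumors from mice No203, No279 and No364. Every mouse, controls included, carried the mutant Nf2 allele over a wild-type allele (Nf2Δ2/+) on a mixed C57BL/6 x 129/Sv x FVB background. No treatment or age is given. The Cd44 and Nf2 genotypes are those of the whole animal, and cells cultured from such tumors are described in the study's methods as lacking Nf2.

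Caspases are cysteine proteases that are made as inactive precursors. In the receptor pathway, ligated death receptors gather Fadd and Casp8, and in the mitochondrial pathway cytochrome c released from mitochondria assembles Apaf1 and Casp9 into the apoptosome. Both pathways lead to the executioner caspases, and the IAP proteins act against them, Xiap by binding active caspases, and Birc2 and Birc3 (cIAP1 and cIAP2) mainly as ubiquitin ligases in signaling from the tumor necrosis factor receptor and to NF-kB. Most caspase regulation takes place on the protein, by cleavage and binding, which counts of RNA do not show.

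Total counts per tumor ranged from 18076388 to 26954142, and values are given as normalized counts (CPM, scaled with the TMM factors of edgeR). The counts of No316 and No368 lay within binomial sampling noise for 87.2% of 16671 genes, against 15.7% to 24.1% in the other 14 pairs of tumors, so the pair was counted as 1 sample in each mean ± SD (n = 2 for CD44+/+, n = 3 for CD44-/-). The fits used the 6 libraries. For the 8 apoptosis genes, the smallest p of an exact binomial test between No316 and No368 was 0.0983, for Casp9. Several tumors stood apart in ways that the genotype does not name. The share of counts from mitochondrial genes was 55.2% in No244, compared with 5.94% to 12.5% in the others. The 6 skeletal muscle markers summed to 17758 CPM in No244 and 17.9 to 657 elsewhere, and the 9 hepatocyte markers found to 119273 CPM in No364 and 42.1 to 153 elsewhere. Epithelial markers summed to 2114 CPM in No364 and to at most 45.4 CPM elsewhere, while macrophage markers (453 to 1204 CPM), endothelial markers (77.7 to 352 CPM), neutrophil markers (31.6 to 77.6 CPM) and lymphocyte markers (0.973 to 10.1 CPM) overlapped between genotypes. The 9 osteoblast markers summed to 33831 to 52923 CPM in CD44+/+ tumors and to 84737, 22517 and 3689 in No203, No279 and No364. In No279 and No364, 5 of the 9 (Sp7, Alpl, Ibsp, Bglap and Dmp1) were far below every other tumor, Sp7 at 3.96 and 0.314 CPM, against 192 to 333, and Ibsp at 3.27 and 2.25 CPM, against 640 to 4820. The other 4 were mixed in No279, where Col1a1 (11990 CPM) exceeded No244 (8482 CPM) and Runx2 was at 68.3 CPM, against 95.03 in No244. In No364 Runx2 was at 5.76 and Col1a1 at 765 CPM. The targeted gene Cd44 was lower in every CD44-/- tumor (15.7 to 61.8 CPM) than in every CD44+/+ tumor (137.3 to 243.6 CPM). Its log2 fold change was -2.68, and edgeR's quasi-likelihood test gave an unadjusted p of 0.00494 and an adjusted p of 0.452. The Wald test of DESeq2 gave an adjusted p of 0.0145. Thus edgeR did not call even the targeted gene at an adjusted p under 0.05.

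The 8 genes were detected in all 6 tumors, and 7 of them overlapped between genotypes. Casp8 was the exception, with higher values in all 3 CD44-/- tumors. None of the 8 passed edgeR's quasi-likelihood test at an adjusted p under 0.05, where the share called over all genes tested was 0%. None had an unadjusted p under 0.05 either, against 10.7% of all genes tested, and the Wald test of DESeq2 called 0 of the 8, against 2.33% of its genes (419 of 17952). The 1 of 8 genes without overlap stands beside 19.1% of all genes tested, 9.49% higher and 9.57% lower in CD44-/- tumors, so the share is not above the background. The median log2 fold change of the 8 genes was 0.21, against 0.11 for all genes tested. In bulk tumor tissue, fewer cells of a type and less RNA per cell cannot be told apart.

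**Figure D1:**
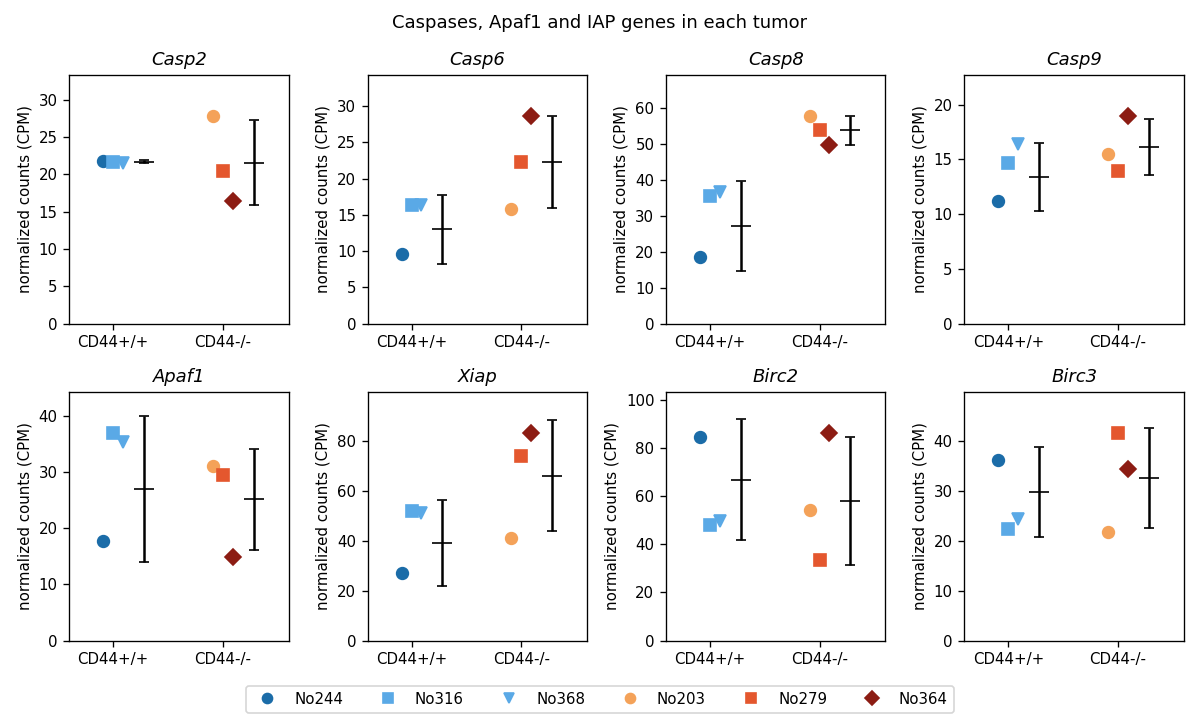
Normalized counts (CPM, linear axis from 0) of the 8 apoptosis genes in each tumor, with CD44+/+ on the left and CD44-/- on the right of each panel; each marker is 1 tumor, and the line with its error bar is the mean ± SD with No316 and No368 counted as 1 sample. Only in the Casp8 panel do the CD44-/- tumors (49.7 to 57.6 CPM) all lie above the CD44+/+ tumors (18.4 to 36.5 CPM).

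The promoter windows of 4 genes are shown, because the levels of these genes or their order across tumors are taken up below: Casp8, which alone did not overlap between genotypes, Birc2 and Birc3, which neighbor each other and followed different orders, and Apaf1, which with Birc2 holds the CD44 response element searched for. Each window spans 250 bases before to 50 bases after a transcription start listed by RefSeq on GRCm38.p6, is read 5′ to 3′ on the gene's strand, and has the letters CGCAGG, which are CCTGCG on the opposite strand, in capitals. The Casp8 window is chr1:58802252-58802551 (plus strand), the Birc2 window chr9:7837008-7837307 (minus strand), the Birc3 window chr9:7873121-7873420 (minus strand) and the Apaf1 window chr10:91082694-91082993 (minus strand). The Casp8 gene as annotated by GENCODE begins at 58795374, so its window lies inside the gene and does not describe the annotated 5′ end.
Casp8: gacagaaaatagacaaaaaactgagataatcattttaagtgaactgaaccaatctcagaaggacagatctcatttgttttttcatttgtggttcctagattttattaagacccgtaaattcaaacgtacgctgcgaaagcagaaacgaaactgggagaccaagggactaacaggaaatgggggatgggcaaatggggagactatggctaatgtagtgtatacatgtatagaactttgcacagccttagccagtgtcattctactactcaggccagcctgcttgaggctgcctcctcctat
Birc2: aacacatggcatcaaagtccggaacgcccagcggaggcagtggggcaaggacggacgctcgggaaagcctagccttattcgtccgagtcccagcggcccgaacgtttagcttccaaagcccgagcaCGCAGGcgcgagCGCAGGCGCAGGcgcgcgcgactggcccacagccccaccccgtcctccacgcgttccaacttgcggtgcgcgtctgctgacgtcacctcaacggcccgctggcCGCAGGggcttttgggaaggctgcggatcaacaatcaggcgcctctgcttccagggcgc
Birc3: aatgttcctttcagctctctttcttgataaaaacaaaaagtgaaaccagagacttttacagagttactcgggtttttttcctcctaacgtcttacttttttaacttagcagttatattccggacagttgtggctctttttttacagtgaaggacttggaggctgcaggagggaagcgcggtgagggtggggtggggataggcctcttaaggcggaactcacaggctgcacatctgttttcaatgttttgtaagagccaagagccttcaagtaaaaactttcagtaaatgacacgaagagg
Apaf1: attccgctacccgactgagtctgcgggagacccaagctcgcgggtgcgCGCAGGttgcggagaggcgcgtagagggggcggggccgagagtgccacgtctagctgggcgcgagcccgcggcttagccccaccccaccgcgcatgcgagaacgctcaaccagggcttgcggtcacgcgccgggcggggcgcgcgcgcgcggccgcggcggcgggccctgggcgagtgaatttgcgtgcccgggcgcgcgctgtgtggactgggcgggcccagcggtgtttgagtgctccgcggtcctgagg

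CCTGCG is the element named for the intracellular domain of CD44. On either strand it occurred in 2 of the 11 RefSeq windows of the 8 genes and in 17.3% of the 32851 windows of all genes. The Birc2 window shown held it at 4 places, which start 124, 112, 106 and 9 bases before the transcription start, and the Apaf1 window at 1 place, 202 bases before it. The letters TGAGTCA, the element of phorbol ester response, read TGACTCA on the opposite strand and are thus a single motif, found in 5.20% of all windows and in 0 of the 11 windows of the 8 genes. These matches describe letters and not binding. The 2 windows poorest in G and C among those shown were Casp8 (42.0%, 5 CpG dinucleotides) and Birc3 (43.0%, 7 CpG), while Birc2 reached 67.0% (34 CpG) and Apaf1 74.7% (46 CpG). The quartiles of all windows were 45.7%, 52.7% and 61.7%.

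Casp8 encodes the initiator caspase of death receptors, which also restrains necroptosis. The gene (ENSMUSG00000026029) lies on chromosome 1 of GRCm38 from 58795374 to 58847503, plus strand. CD44+/+ tumors held 18.4 (No244), 35.5 (No316) and 36.5 CPM (No368), whereas CD44-/- tumors held 57.6 (No203), 53.9 (No279) and 49.7 CPM (No364). Values of the other genes follow the same order of tumors. The genotypes did not overlap, and No244 was lowest by a wide margin. The mean was 27.2 ± 12.4 CPM (SD, n = 2) with CD44 and 53.7 ± 3.98 CPM (SD, n = 3) without it, and the log2 fold change 0.83 (standard error 0.36, 95% interval -0.029 to 1.70), with an unadjusted p of 0.0562 and an adjusted p of 0.462 in edgeR's quasi-likelihood test. The interval reaches from no difference to more than a 3-fold higher level, and the Wald test of DESeq2 gave an adjusted p of 0.431. With No316 and No368 summed, the log2 fold change was 0.96 (standard error 0.50). The quasi-likelihood test of edgeR then gave an unadjusted p of 0.101 and an adjusted p of 0.818. The separation depended on the scaling. It held with the size factors of DESeq2 and with mitochondrial genes removed, but not with counts divided by library size alone. There the values were 10.4, 46.6 and 48.1 CPM against 64.1, 66.5 and 35.2 CPM, with No364 below No316 and No368. The log2 fold change was then 0.67. Without No244 the log2 fold change was 0.57, and without No364 it was 0.89. Without both, with No316 and No368 summed, it was 0.56. Casp8 did not overlap in any of these settings. Leaving out tumors cannot bring an overlap to a separated gene, except through rescaling, so this does not test the separation. In these settings 39.7%, 28.7% and 59.8% of all genes did not overlap either.

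Casp2 encodes a caspase that is activated on the PIDDosome, a complex of Pidd1 and Cradd. It is ENSMUSG00000029863 on chromosome 6 from 42264985 to 42282508, plus strand. The CD44+/+ tumors held 21.8, 21.7 and 21.5 CPM and the CD44-/- tumors 27.8, 20.5 and 16.5 CPM. The values of the CD44+/+ tumors lay close together and inside the range of the CD44-/- tumors, of which No203 was highest and No364 lowest. The mean was 21.7 ± 0.193 CPM (SD, n = 2) with CD44 and 21.6 ± 5.73 CPM (SD, n = 3) without it, and the 95% interval of the log2 fold change ran from -0.82 to 0.81 (adjusted p = 0.997 from edgeR).

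Casp9 encodes the initiator caspase of the apoptosome (ENSMUSG00000028914, chromosome 4 from 141793612 to 141815976, plus strand). Its levels were 11.2, 14.7 and 16.5 CPM in CD44+/+ tumors, compared with 15.5, 13.9 and 18.9 CPM in CD44-/- tumors. The genotypes overlapped, with No244 lowest and No364 highest. The log2 fold change was 0.19 (standard error 0.36, 95% interval -0.67 to 1.06, adjusted p = 0.858 from edgeR). Casp9 shares 94 exon bases with the antisense pancreatic enzyme genes Cela2a and Ctrc, whose counts of 3 to 42 and 3 to 27 per tumor were equal to each other in 4 of 6 tumors. Since the strand setting of the counting is not stated, reads of the shared bases cannot be told apart, and the Casp9 level is uncertain by that much.

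Apaf1 encodes the scaffold of the apoptosome (ENSMUSG00000019979, chromosome 10 from 90989311 to 91082770, minus strand). It stood at 17.8, 36.9 and 35.4 CPM in CD44+/+ tumors, compared with 31.1, 29.5 and 14.8 CPM in CD44-/- tumors. No244 and No364 were the low tumors of the respective genotypes, and the other 4 lay between 29.5 and 36.9 CPM. The log2 fold change was -0.26 (standard error 0.45, 95% interval -1.33 to 0.82, adjusted p = 0.844 from edgeR). The ratio of Casp9 to Apaf1, each per kilobase of exon, was 1.09, 0.691 and 0.807 in CD44+/+ tumors, compared with 0.866, 0.820 and 2.22 in CD44-/- tumors, so No364 stood apart with 2.22 times as much Casp9 as Apaf1 RNA per length.

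Casp6 encodes a caspase grouped with the executioners and known for cleaving lamins (ENSMUSG00000027997, chromosome 3 from 129901425 to 129914103, plus strand). Levels of 9.66, 16.4 and 16.3 CPM in CD44+/+ tumors stood against 15.9, 22.3 and 28.6 CPM in CD44-/- tumors. The overlap came from No203 alone, which at 15.9 CPM lay just below No316 and No368. The mean was 13.01 ± 4.73 CPM (SD, n = 2) with CD44 and 22.3 ± 6.36 CPM (SD, n = 3) without it, with a log2 fold change of 0.65 (standard error 0.41, 95% interval -0.32 to 1.63, adjusted p = 0.558 from edgeR). It was 0.16 without No279 and No364, and 0.14 without No244 and No364 with No316 and No368 summed.

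Xiap encodes the IAP that binds and blocks active caspases, the initiator Casp9 among them. The gene (ENSMUSG00000025860) lies on the X chromosome from 42059679 to 42109656, plus strand. It was measured at 27.0, 51.7 and 51.1 CPM in CD44+/+ tumors, compared with 40.9, 74.0 and 83.1 CPM in CD44-/- tumors. As in the case of Casp6, No279 and No364 were highest, No244 lowest, and No203 lay within the CD44+/+ range. The log2 fold change was 0.61 (standard error 0.43, 95% interval -0.41 to 1.63, adjusted p = 0.595 from edgeR), and it was -0.086 without No279 and No364. In the same 2 tumors the X inactivation transcript Xist stood at 0.726 and 0.994 CPM, against 859 to 1241 CPM in the others, and the Y-linked Ddx3y at 18.9 and 22.5 CPM, against at most 0.0420 CPM. Xiap therefore moved with the sex-linked genes as well as with low osteoblast markers, and the part of either in its level was not tested. The ratio of Xiap to Casp9 per kilobase was 1.32, 1.93 and 1.70 in CD44+/+ tumors, compared with 1.45, 2.91 and 2.41 in CD44-/- tumors.

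Birc2 and Birc3 encode a pair of closely related ubiquitin ligases that are bound to Traf2 and hold down cell death signaling at the tumor necrosis factor receptor. Birc2 (ENSMUSG00000057367) lies on chromosome 9 from 7818227 to 7837064 and Birc3 (ENSMUSG00000032000) from 7848699 to 7873186, both on the minus strand with 11634 bases between them. Birc2 reached 84.6, 48.1 and 49.9 CPM in CD44+/+ tumors, compared with 54.3, 33.3 and 86.2 CPM in CD44-/- tumors. Its highest values were those of No364 and No244, 1 tumor of each genotype, and its lowest that of No279. Birc3 reached 36.1, 22.4 and 24.3 CPM in CD44+/+ tumors, compared with 21.7, 41.6 and 34.3 CPM in CD44-/- tumors. Here No279 was highest, and No203 lowest. The log2 fold changes were -0.071 (standard error 0.46, 95% interval -1.16 to 1.02, adjusted p = 0.961) for Birc2 and 0.24 (standard error 0.38, 95% interval -0.67 to 1.15, adjusted p = 0.826) for Birc3, both from edgeR. That of Birc2 was 0.23 without No244, 0.21 without No279 and -0.47 without No364, and that of Birc3 was -0.34 without No279 and No364. The ratio of Birc2 to Birc3 per kilobase was 2.56, 2.35 and 2.24 in CD44+/+ tumors, compared with 2.73, 0.876 and 2.75 in CD44-/- tumors. Thus 5 tumors held more than 2 times as much Birc2 as Birc3 RNA per length, and No279 held less. Reads of related sequence could be split between the pair, since the handling of reads with several matches is not stated.

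**Figure D2:**
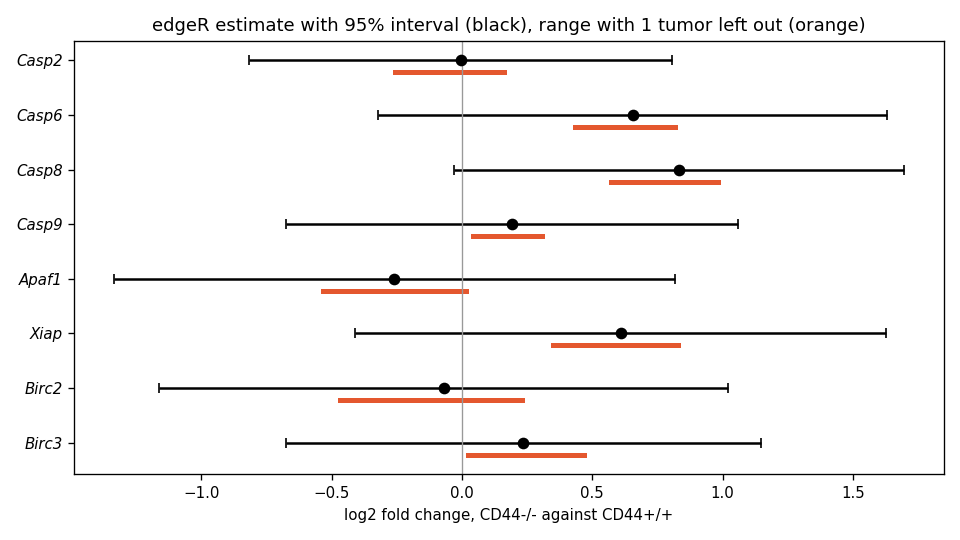
Log2 fold change of each of the 8 genes, CD44-/- against CD44+/+, as estimated by edgeR over 6 libraries, with points for the estimate and bars for its 95% interval. Every interval includes 0, and that of Casp8 (-0.029 to 1.70) does so most narrowly. The nearly identical No316 and No368 count separately in this fit, so the intervals can be too narrow. With the pair summed, the standard error of Casp8 was 0.50, against 0.36 here.

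The tumor that held the highest or lowest value was often No244 or No364. No244 had the lowest level of Casp6, Casp8, Casp9 and Xiap. No364 had the highest level of Casp6, Casp9, Xiap and Birc2 and the lowest of Casp2 and Apaf1. These are the tumors with the muscle markers and mitochondrial counts and with the liver markers, and the part of other tissue in these levels was not tested. Over 5 samples (No316 and No368 as 1), the SD of log2(CPM + 1) was 0.257 for Casp2 and 0.260 for Casp9, at the percentiles 5.40 and 5.59 of 13766 protein-coding genes, so these 2 caspases were among the steadier genes. The SD of Birc3 was 0.397 and those of the other 5 genes lay between 0.534 for Apaf1 and 0.657 for Casp8, below the median of 0.663.

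Levels were compared between genes only as CPM per kilobase of exon. The order of the means over the 5 samples was Casp8 (14.9), Birc2 (13.4), Birc3 (6.27), Xiap (5.84), Casp6 (3.32), Casp2 (3.07), Casp9 (2.89) and Apaf1 (2.87 CPM per kilobase). In each of the 7 neighboring pairs of this order the ranges over tumors overlapped. Both genes of a pair are measured in the same tumors, so overlapping ranges do not show equal levels. Birc2, for example, exceeded Birc3 in every tumor except No279. Casp8 ranged from 6.36 to 19.9 and ranked first in 4 tumors, while Birc2, from 7.27 to 18.8, ranked first in No244 and No364. The 2 apoptosome genes, Casp9 (2.15 to 3.65) and Apaf1 (1.64 to 4.09), had the lowest means, close to that of Casp2. Within tumors the last place was held by Casp6 (No244, No368 and No203), Casp9 (No316 and No279) or Apaf1 (No364). The exon lengths sum the exons of all annotated transcripts, which understates the level of genes with long, rarely used exons.

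**Figure D3:**
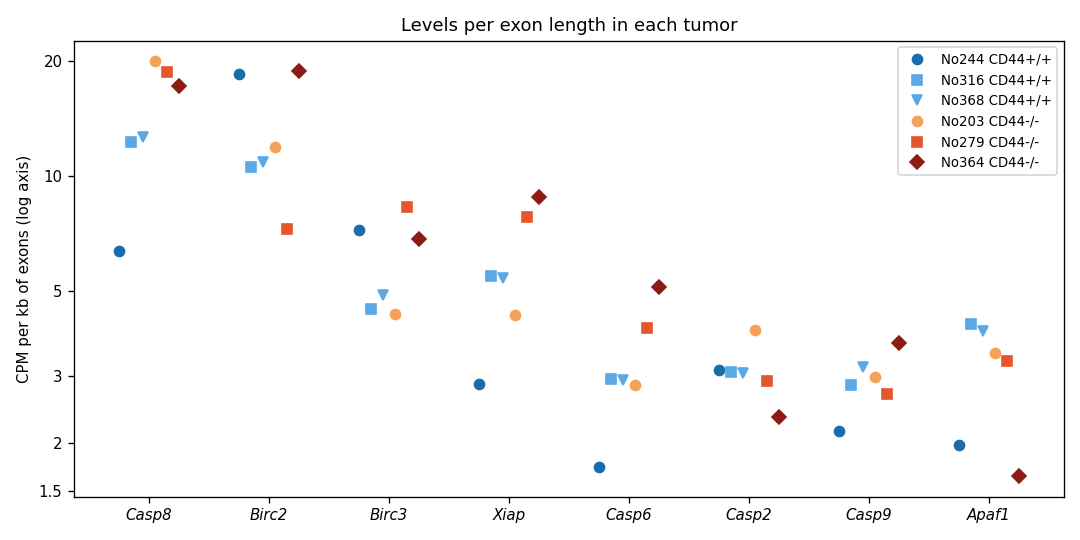
CPM per kilobase of exon (log axis) of the 8 genes in the 6 tumors, ordered by the mean over 5 samples; each marker is 1 tumor. Casp8 and Birc2 lie above the other genes in most tumors, with means of 14.9 and 13.4 CPM per kilobase, and the ranges of neighboring genes overlap.

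The partners of these genes were examined as 8 lists of 54 genes, of which 52 were tested. None was called by edgeR's test, which called 0% of all genes tested. The smallest adjusted p from edgeR was 0.452, both in the lists and over all genes. None was called by the Wald test of DESeq2 either, against 2.33% of its genes. An unadjusted p under 0.05 was reached by Parp1 and Nfkb2, both higher in CD44-/- tumors (6.44% of all genes were called so, and 4.31% lower). With No316 and No368 summed, neither gene was below 0.05 in edgeR (unadjusted p = 0.0852 for Parp1 and 0.159 for Nfkb2). In 7 genes the CD44-/- tumors all lay higher and in 2 lower, together 17.3% against 19.1% of all genes tested, and the median log2 fold change was 0.21. With library size alone as scaling, 2 of the 9 (Fadd and Il18) remained without overlap. All 9 remained so with the size factors of DESeq2 and with mitochondrial genes removed.

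Among the death receptors, ligands and adaptors (10 of 11 tested, median log2 fold change 0.11), 3 genes did not overlap, all higher in CD44-/- tumors, where 9.49% of all genes tested were so. Of the 3, Fadd alone stayed without overlap with library size alone. Fadd, the adaptor that recruits Casp8, stood at 6.30, 4.10 and 4.41 CPM in CD44+/+ tumors, compared with 8.53, 7.86 and 12.6 CPM in CD44-/- tumors (log2 fold change 0.97, standard error 0.46). Cflar, the catalytically inactive relative of Casp8 that restrains it, stood at 48.6, 44.1 and 42.5 CPM against 54.2, 57.5 and 69.7 CPM, a smaller log2 fold change of 0.42. Tradd, an adaptor of the tumor necrosis factor receptor, was likewise higher in CD44-/- tumors in every case, with a log2 fold change of 0.38. Ripk1 (log2 fold change -0.34) and Tnfrsf1a (-0.80) overlapped. The receptor gene Fas overlapped widely, from 4.24 to 18.7 CPM and from 3.57 to 30.1 CPM. The ratio of Casp8 to Cflar per kilobase was 1.66, 3.52 and 3.76 in CD44+/+ tumors, compared with 4.65, 4.11 and 3.12 in CD44-/- tumors. Its size rests on the merged exon lengths, 2893 bases for Casp8 and 12669 for Cflar. In CPM, without the lengths, Cflar exceeded Casp8 in every tumor except No203. The ratio therefore does not show which of the 2 RNAs was more abundant. The ratio overlapped between genotypes because No364 combined high Cflar with the lowest Casp8 of the CD44-/- tumors.

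Of the 4 genes of caspase substrates, with the nuclease partner of 1 of them (median -0.033), Parp1 was without overlap higher in CD44-/- tumors, and Dffb lower. Of all genes tested, 9.49% were without overlap higher and 9.57% lower. Parp1, a DNA repair enzyme cleaved by executioner caspases, reached 23.4, 33.1 and 32.1 CPM in CD44+/+ tumors, compared with 53.2, 54.9 and 50.7 CPM in CD44-/- tumors (log2 fold change 0.84, standard error 0.29, adjusted p = 0.452 from edgeR). It resembled Casp8 in that the CD44-/- tumors lay close together and No244 was lowest. Dffb, the nuclease that cuts DNA in apoptosis, stood at 8.91, 6.26 and 6.93 CPM against 4.92, 4.06 and 2.30 CPM (log2 fold change -0.97). Dffa, its inhibitor and itself a caspase substrate, overlapped, at 9.49 to 11.01 CPM against 9.34 to 17.05 CPM.

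Of the 6 mitochondrial factors and IAP antagonists (median 0.36), 1 did not overlap, 16.7% against 19.1% of all genes tested. Cycs, which encodes the cytochrome c that Apaf1 senses, stood at 154, 125 and 124 CPM in CD44+/+ tumors, compared with 318, 162 and 222 CPM in CD44-/- tumors. Of the other IAP genes, 6 of 7 were tested and all overlapped (median -0.10). Birc5 (survivin) had 11.8 to 44.0 CPM against 11.5 to 58.8 CPM, Birc7 had 0 counts in every tumor, which allows at most 0.0990 to 0.252 CPM at the limit of 3 counts, and the Naip genes are near-identical copies whose counts are uncertain. The PIDDosome partners of Casp2, Pidd1 and Cradd, both overlapped (median -0.40), Pidd1 with 6.47 to 13.9 CPM against 2.18 to 9.44 CPM.

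The NF-kB regulators (12 tested, median 0.38) held 2 genes without overlap, 16.7% against 19.1% of all genes tested. Nfkb2, whose processing Birc2 and Birc3 restrain through turnover of the kinase Map3k14, had 26.5, 18.0 and 17.3 CPM in CD44+/+ tumors, compared with 34.7, 54.5 and 28.4 CPM in CD44-/- tumors (log2 fold change 0.93, standard error 0.38, adjusted p = 0.460 from edgeR). Tnfaip3, a brake on NF-kB, had 12.5 to 12.9 CPM against 15.5, 36.6 and 14.5 CPM. In both genes No279, the tumor with the highest Birc3, was highest, and without it the log2 fold change was 0.62 for Nfkb2 and 0.25, from 0.82, for Tnfaip3. Of the 9 genes of inflammatory caspases and pyroptosis (median 0.47), 1 did not overlap, 11.1% against 19.1% of all genes tested. This was the cytokine gene Il18 (log2 fold change -1.06, and -1.77 without No364). Casp1 overlapped at 14.7 to 35.3 CPM against 6.58 to 47.3 CPM. The 3 necroptosis genes, which Casp8 holds in check, overlapped, although their median log2 fold change was 1.46. Zbp1 reached 19.4 and 26.4 CPM in No279 and No364 and 0.833 to 3.75 CPM elsewhere, with No203 lowest. The other 2 genes followed other orders, Ripk3 being lowest in No364 (3.61 CPM) and Mlkl in No316 and No368 (2.02 and 2.06 CPM).

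**Figure D4:**
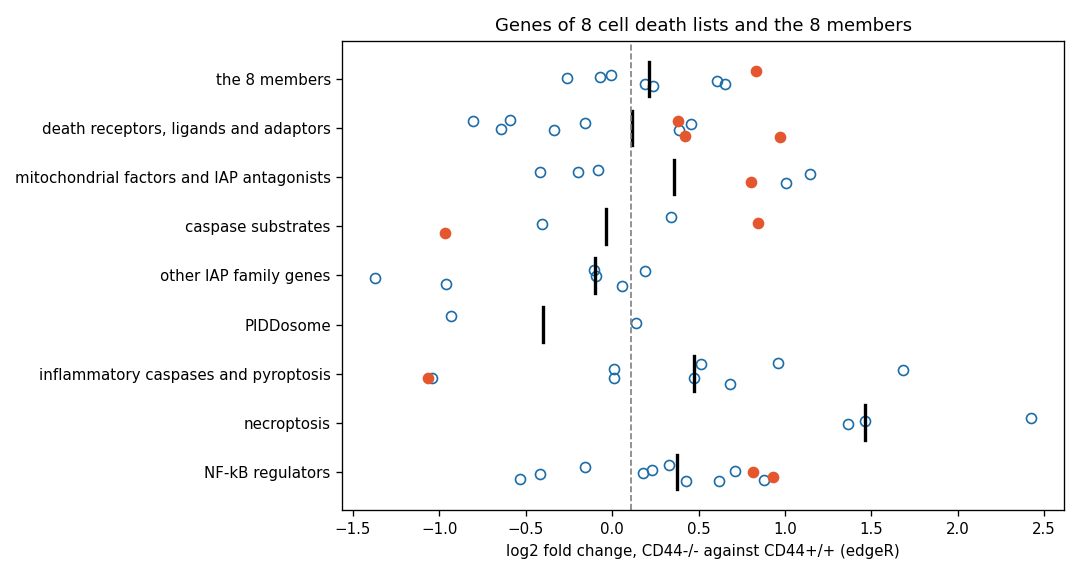
Log2 fold change (edgeR, CD44-/- against CD44+/+) of each tested gene in the 8 apoptosis genes and in the 8 partner lists; each point is 1 gene, filled where the genotypes did not overlap, the black strokes are list medians, and the dashed line is the median of all genes tested (0.11). List medians run from -0.40 for the PIDDosome to 1.46 for necroptosis. No gene passed the adjusted test of edgeR, which called 0% of all genes tested.

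The genes within 500 kb were compared to see whether neighbors shared the pattern. Around Casp8, 15 of 18 protein-coding genes were tested, Casp8 included. Besides Casp8 itself, only Cflar and Ndufb3 were without overlap higher in CD44-/- tumors, and only Cdk15 lower. Of all genes tested, 9.49% were without overlap higher and 9.57% lower. Cflar ends 36489 bases before Casp8 and is described above. Ndufb3, a subunit gene of respiratory complex I, had 39.8, 27.9 and 30.4 CPM in CD44+/+ tumors, compared with 69.6, 46.1 and 66.4 CPM in CD44-/- tumors (log2 fold change 0.89). The kinase gene Cdk15 was lower, at 24.2, 4.94 and 4.07 CPM against 0.397, 3.93 and 0.209 CPM. The other 11 neighbors of Casp8, among them Trak2 (log2 fold change -0.11) and Bzw1 (0.69), overlapped. Around Birc2 and Birc3, 11 of 14 genes were tested, and the matrix metalloproteinase gene Mmp3 alone did not overlap, at 0.84, 1.25 and 1.09 CPM against 1.86, 46.3 and 3.82 CPM. The Wald test of DESeq2 called Mmp3 (adjusted p = 0.0343), and edgeR did not (adjusted p = 0.452). That difference was mostly No279, also the tumor with the highest Birc3 and the lowest Birc2. Tmem123 (46.8, 130.5 and 122.2 CPM against 115.1, 103.9 and 81.6 CPM) and Yap1 (45.04, 81.3 and 80.8 CPM against 73.5, 56.9 and 68.9 CPM) flank the pair and were lowest in No244, where Birc2 was second highest.

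**Figure D5:**
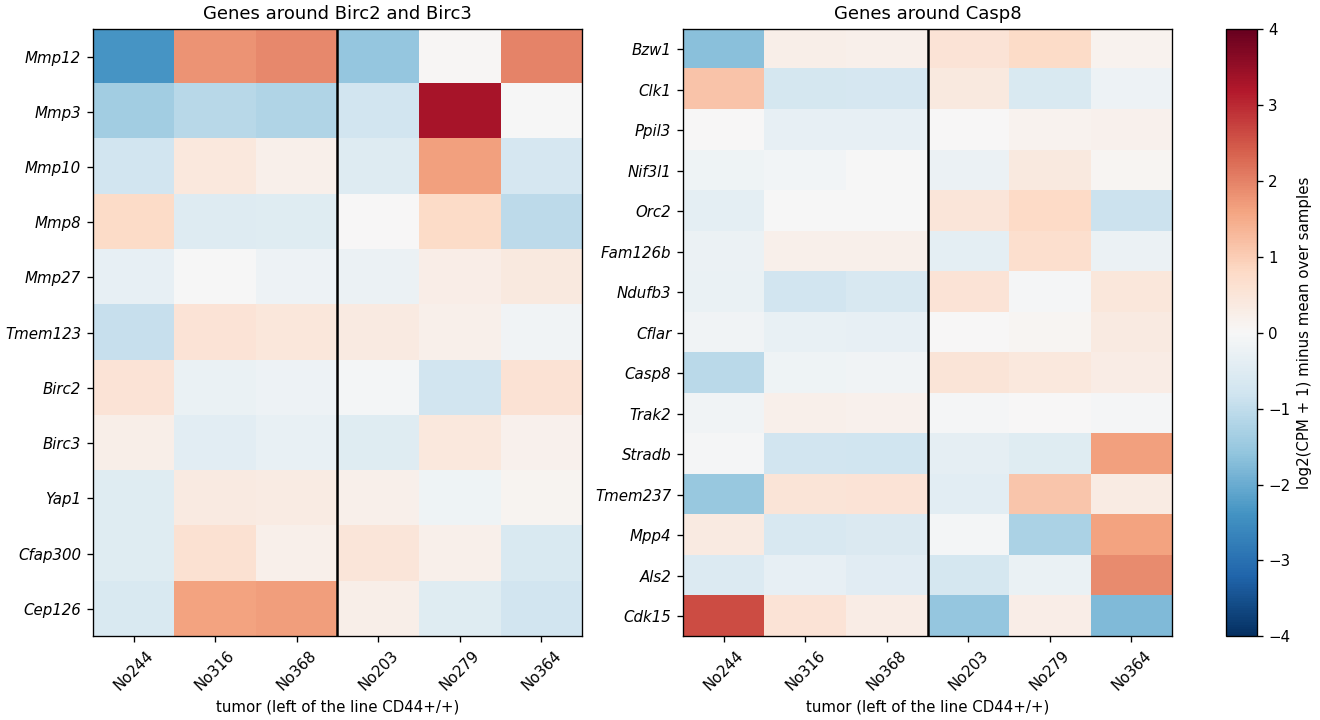
Level of each tested gene within 500 kb of Birc2 and Birc3 (left) and of Casp8 (right) in each tumor, as log2(CPM + 1) minus the gene's mean over samples, in genomic order, with red above and blue below the mean and CD44+/+ tumors left of the line. The darkest red cell is Mmp3 in No279 (46.3 CPM), and Birc2 and Birc3 differ most in that tumor.

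The protein-coding genes whose pattern was most like each of the 8 genes were sought by Pearson's r of log2 normalized counts over the 6 libraries. The points share libraries, and 2 of them are nearly the same library, so that a high r is common by construction and is given as a description. For Casp8 they were Tor1aip2 (0.996), Utp18 (0.996) and Kpnb1 (0.993), and for Casp2 Lsm2 (0.992), Gse1 (0.990) and Actb (0.989). For Casp9 they were Pid1 (0.979), Pigg (0.978) and Krcc1 (0.970), and for Apaf1 Prss35 (0.998), Gltp (0.995) and Slc39a10 (0.993). Casp6 was most like Slc25a5 (0.998), Mtor (0.997) and Ndfip2 (0.997), and Xiap like Ebag9 (0.995), B430218F22Rik (0.995) and Txndc12 (0.995). Birc2 was most like Dalrd3 (0.999), Ndufs6 (0.992) and Ndufaf8 (0.991), and Birc3 like Bnip3l (0.986), Irf7 (0.983) and Sp140 (0.978). Among the 8 genes themselves, Casp6 and Xiap had the highest r (0.977) and Apaf1 and Birc2 the lowest (-0.81), and the adjacent Birc2 and Birc3 had 0.0879.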

How the data were processed

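RNA of 6 primary osteosarcomas was compared. The files deposited hold counts per Ensembl gene that were not normalized. According to the methods, reads of stranded mRNA libraries were demultiplexed with bcl2fastq 1.8.4, aligned to GRCm38 with HISAT2 2.0.2 and counted with featureCounts (Subread 2.0.0). The strand and multi-mapping settings are not given in the sources used here, and the labels' extraction text names cell lines where the methods name tumor tissue. Symbols, coordinates and exon lengths come from GENCODE M21 (GRCm38), another release than the one counted on, which matched 37693 of 39179 identifiers, and promoter sequences from RefSeq.

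The test of genotype, as the single factor, was the quasi-likelihood F test of edgeR 4.0.16 (R 4.3.3) after TMM scaling and the filterByExpr filter. The threshold was a p of 0.05 after Benjamini-Hochberg adjustment over all genes tested. The biological coefficient of variation was 0.708. Alternatives used DESeq2 1.42.0 and limma 3.58.1. Nothing says more of the replicates than 1 mouse per tumor, and p-values measure the spread between these libraries. The main fit counted the nearly identical No316 and No368 separately, so its p-values and intervals can understate the spread between CD44+/+ tumors. The floor of 3 counts covers counting error only. Scripts were tested on simulated data. Some genes are not reported here. The 8 genes, the partner lists and the rule for named genes (non-overlapping genotypes or an unadjusted p under 0.05, each list's defining gene, tested neighbors within 500 kb, and the 3 genes of highest r) were chosen with earlier results of these data known.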

Additional observations from a re-analysis of the deposited data

How the results depend on the processing

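The directions of Casp6 and Casp8 were the same in all 16 alternatives, but Casp6 came down from 0.65 to 0.14 and 0.16 in the settings that leave out 2 tumors, and Casp8 from 0.83 to 0.56 in one of these. None of the 8 genes was called in any alternative. Leaving out each tumor in turn moved the log2 fold change of Casp2 between -0.26 and 0.16, of Apaf1 between -0.53 and 0.015 and of Birc2 between -0.47 and 0.23, all of which include a change of sign. Leaving out No279 and No364, chosen after seeing the data, reversed Casp2 (0.36), Apaf1 (0.043), Xiap (-0.086) and Birc3 (-0.34). Leaving out No244 and No364 with No316 and No368 summed, also chosen after seeing the data, reversed Casp2 (0.085) and Casp9 (-0.15). The cause was not tested.

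The count of the 8 genes without overlap was 1 in the values reported, 0 with library size alone, 1 to 4 without each tumor in turn, and 3 in each of the settings that leave out 2 tumors. It reached 4 without No203 and 2 without No244. Fewer tumors make an overlap less likely, and the share over all genes rose likewise, from 19.1% to 37.8% without No203, 39.7% without No244, and 59.8% and 54.4% without 2 tumors. The Wald test of DESeq2 called 419 genes over all genes tested, and every other setting called 0. At an unadjusted p under 0.05, edgeR had 1085 of 1810 genes higher in CD44-/- tumors, against 817 of 1197 with library size alone, 591 of 1540 with limma-voom and 324 of 761 with No316 and No368 summed. No paired analysis was possible because the genotypes share no replicate number. With 3 tumors a genotype, 2 of them nearly the same library, the widths of the intervals given for the 8 genes set what could be seen.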
